A study of Mus musculus with 4 samples.

Results

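The targets of miR-23 and miR-24 were read from Ago2 chimeric eCLIP-seq of overloaded mouse plantaris muscle, in which a microRNA (miRNA) and the RNA it was bound to are ligated inside the Argonaute protein and sequenced as 1 chimeric read. All entries that name mmu-miR-23a-3p (1919 in the control, 2098 in the mimic), mmu-miR-23b-3p (1420, 1558) or mmu-miR-24-3p (2159, 2410) were taken, where an entry is 1 miRNA in 1 peak of the genome. These were 5498 of 93468 entries in the control library and 6066 of 100897 in the mimic library, or 11564 of 194365 in all. Each library came from the plantaris of adult male C57BL/6J mice, 5 months old, after 10 days of mechanical overload (MOV) by synergist ablation. The control muscle was the left plantaris injected with a scramble lentivirus, and the mimic muscle the right plantaris injected with a lentivirus encoding miR-1a-3p, both with a CMV promoter and a TurboGFP reporter. The CMV promoter is not restricted to muscle fibres. There was 1 library of each (n = 1), so virus, leg and library cannot be told apart, and no difference between them has a replicate check. All intervals in the text are 95% intervals. Those of shares, reads and ratios cover counting error only, and those of medians cover the spread among sites of these libraries. None covers variation between animals. According to the methods, a primer for miR-1 was used in amplification, and its part in the recovery of other miRNAs was not tested. All 53 listed sarcomere genes held a chimeric peak, with 20.8% and 23.6% of all chimeric reads in the control and the mimic. All 52 listed matrix genes also held a chimeric peak, so holding a peak does not by itself mark the tissue. Of 15 endothelial and 15 macrophage markers, 11 each held one, with 0.0337% and 0.0560% (endothelial) and 0.0749% and 0.0709% (macrophage) of all chimeric reads in the control and the mimic.

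MiRNAs guide Argonaute proteins to partly complementary sites, mostly in the 3′ untranslated region (3′ UTR) of mRNAs, and pairing of the seed near the 5′ end of the miRNA is the main determinant of target choice. miR-23, miR-27 and miR-24 are processed from shared primary transcripts of a pair of paralogous clusters, and miR-24-3p is made from both. In muscle, miR-23a is known for repressing the atrophy ubiquitin ligases, and miR-24 for promoting myogenic differentiation and for targeting cell cycle and junctophilin genes. In the RefSeq annotation of GRCm38.p6, the hairpins Mir23a (chr8:84208518-84208592), Mir27a (chr8:84208672-84208758) and Mir24-2 (chr8:84208815-84208921) lay on the plus strand of chromosome 8. Mir23b (chr13:63300484-63300557), Mir27b (chr13:63300712-63300784) and Mir24-1 (chr13:63301208-63301275) lay on the plus strand of chromosome 13.

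The mature sequences from RefSeq are shown 5′ to 3′ because the target sites below are matched to them, with the seed (bases 2 to 8) in capitals. miR-27a-3p is shown as the cluster member whose seed is closest to that of miR-23. miR-23b-3p is named only.
miR-23a-3p: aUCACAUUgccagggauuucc
miR-24-3p: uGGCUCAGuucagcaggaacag
miR-27a-3p: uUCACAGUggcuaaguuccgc
The seed match searched in target RNA is the reverse complement, AATGTGA for miR-23 and CTGAGCC for miR-24, which do not overlap. ACTGTGA for miR-27 differs from the miR-23 match at 1 base.

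The following stretches of target RNA carry these matches at sites recovered in both libraries, and they are shown because they were among the most abundant placed sites or belong to genes long listed as targets. Capitals mark the seed match. Except for ND5, each is transcript sequence (GENCODE vM1) placed under the peak by its distance from the 3′ end of the gene. The ND5 stretch was read from the mitochondrial genome sequence (NCBIM37) at the coordinates of the peak.
Cxcl12 (miR-23): ttctgtctcccagatAATGTGAaa
Zwint (miR-23): gtctattgaatccagAATGTGAat
Ldb3 (miR-23): caatctagcctttgtAATGTGAac
Sema6d (miR-23): gtggtcttcccattaAATGTGAac
Ubb, coding sequence (miR-23): agtgacaccatcgagAATGTGAag
Hspb6 (miR-24): cacccctaagcctacCTGAGCCct
Plec (miR-24): ttattcccctgagacCTGAGCCtc
Cdkn1b (miR-24): ttaaaaggttgcataCTGAGCCaa
Psap (miR-24): gggcaggagcattttCTGAGCCct
ND5, mitochondrial (miR-24): ctgcaacaccaacgcCTGAGCCct
All except Ubb and ND5 lay in the annotated 3′ UTR.

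Ldb3, Ubb, Plec and Psap were chosen after their values and matches were seen. In the coordinates of mm10 (GRCm38), the Ldb3 site, in the Z-disc gene also called ZASP, was chr14:34526843-34526962 on the minus strand in the control, with 32.6 miR-23 reads and 26.5 in the overlapping mimic peak. The Ubb site, in a polyubiquitin gene whose repeats are near-identical to one another, was chr11:62552829-62552949 on the plus strand, with 12.4 and 27.2 miR-23 reads. The Sema6d site was chr2:124665597-124665732 (plus), with 10.7 and 14.8 miR-23 reads. The miR-24 site in Plec, which encodes the cytoskeletal linker plectin, was chr15:76171407-76171505 (minus), with 14.2 and 20.1 reads. Those in Cdkn1b, chr6:134925397-134925470 (plus), and in the lysosomal gene Psap, chr10:60301970-60302027 (plus), had 8.37 and 7.83, and 9.73 and 7.11 reads of miR-24. Except at Ubb, the reads of these sites in one library were within 1.5 times those in the other.

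miR-23 (miR-23a-3p and miR-23b-3p summed within a peak, called a site) was found at 2532 sites of the control, 12.2% of all chimeric peaks (11.8% to 12.7%), and at 2803 sites in the mimic, 12.8% (12.4% to 13.3%). miR-24 was found at 2159 sites in the control, 10.4% of peaks (9.99% to 10.8%), and at 2410 in the mimic, 11% (10.6% to 11.4%). The values are fractional chimeric reads, and most sites were thin. The median site held 0.927 reads of miR-23 in control muscle and 0.907 in mimic muscle, and 0.882 and 0.880 reads of miR-24. Sites of at least 3 reads numbered 406 and 398 for miR-23 and 262 and 298 for miR-24. These few sites carried 69.9% and 68.5% of the miR-23 reads and 59.0% and 60.5% of the miR-24 reads. At such sites miR-23 was the leading miRNA in 284 of 406 in control muscle and 255 of 398 in mimic muscle, and miR-24 in 172 of 262 and 201 of 298.

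In total, miR-23 had 6228 reads in control muscle and 6610 in mimic muscle, a ratio of 1.06 (1.03 to 1.1). miR-24 had 4051 and 4670 reads, a ratio of 1.15 (1.11 to 1.2). All chimeric reads together had a ratio of 1.12, and 148 miRNAs with at least 50 entries in each library had a median ratio of 1.06, with 0.764 and 1.46 as the 5th and 95th percentiles. Both miRNAs therefore sat inside the spread of the other miRNAs. Divided by library totals, the miR-23 ratio turned to 0.952 and the miR-24 ratio was 1.03. The opposite arms were far less abundant, and those of miR-23 were almost absent. miR-23a-5p had 0 entries in control muscle and 1 in mimic muscle, miR-23b-5p 1 and 0, miR-24-1-5p 22 and 35, and miR-24-2-5p 84 and 89.

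miR-23a-3p was the more abundant name of the miR-23 pair. It had 3996 reads against 2232 of miR-23b-3p in the control, 64.2% of the family, and 4146 against 2464 in the mimic, 62.7%. Both names stood together at 807 sites in control muscle and 853 in mimic muscle, which included all 99 and all 94 sites of at least 10 reads. At those strong sites the miR-23a-3p share had a median of 64.0% in control muscle and 62.1% in mimic muscle, but it ranged from 5.81% to 99.8% and from 6.69% to 95.4%. miR-23a-3p held the larger share at 86 of the 99 and 77 of the 94. How reads that fit both names were divided is not given in the sources used here, and its part in the split was not tested.

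**Figure D1:**
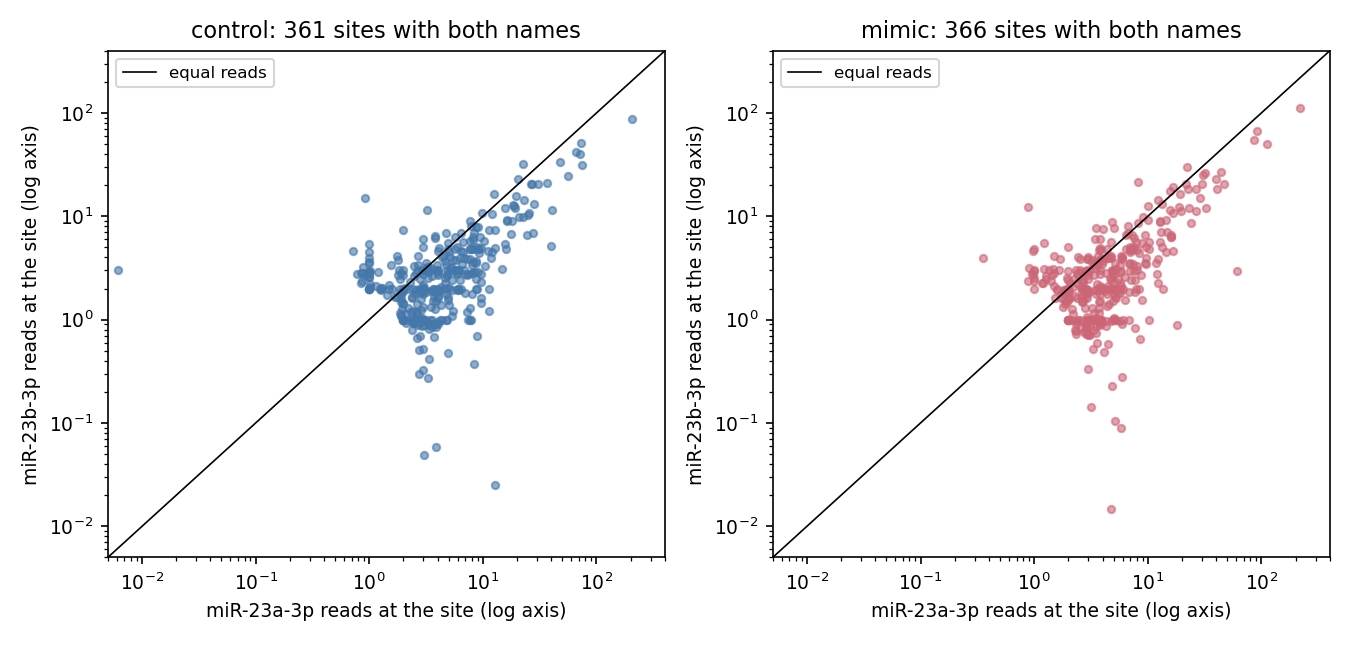
Chimeric reads of miR-23a-3p (x axis) and miR-23b-3p (y axis) at each site that named both and held at least 3 reads of the pair, on log axes, with 1 point per site and 1 panel per library. Most points with over 10 reads lie below the line of equal reads, where miR-23a-3p is the larger.

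The seed of each miRNA was present under its own sites and rare under those of other miRNAs. Of the sites of at least 3 reads, 129 of 406 miR-23 sites in control muscle and 123 of 398 in mimic muscle could be placed in the last exon of a protein-coding transcript. The miR-23 match lay within 10 nt of the peak or inside it at 74 of 129 in the control, 57.4% (48.4% to 66.0%), and at 68 of 123 in the mimic, 55.3% (46.1% to 64.3%). For miR-24, 93 of 262 and 109 of 298 sites were placed, and 38, 40.9% (30.8% to 51.5%), and 45, 41.3% (31.9% to 51.1%), held the miR-24 match.

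Each match was less frequent at the sites of the other cluster members, though not always as rare as at other miRNAs. The miR-24 match stood at 2.33% and 1.63% of placed miR-23 sites, and the miR-23 match at 4.3% (1.18% to 10.6%) and 6.42% (2.62% to 12.8%) of placed miR-24 sites. miR-27 sites held the miR-23 match at 2.23% and 4%. In the other direction, miR-23 sites held the miR-27 match at 6.20% (2.72% to 11.9%) and 6.50% (2.85% to 12.4%), above the 1.01% (0.581% to 1.64%) and 1.27% (0.797% to 1.92%) at peaks of other miRNAs. The peaks of other miRNAs had at least 3 reads of some other miRNA and no entry of miR-23, miR-24 or miR-27 with as many. Those placed held the miR-23 match at 1.78% (1.18% to 2.56%) and 1.73% (1.17% to 2.46%) and the miR-24 match at 0.951% and 1.33%. With the peaks of the cluster's miRNAs kept, these shares were 2.47% and 2.71%, and 1.32% and 1.77%. Windows of 109 nt over the last exons of the 1839 genes with a placed site held the miR-23 match at 1.47% and the miR-24 match at 1.43%, searched on the transcript strand. With the shorter match to bases 2 to 7, the shares were 73.6% and 72.4% for miR-23 and 64.5% and 66.1% for miR-24, beside 3.93% and 4.33%, and 2.60% and 3%, at peaks of other miRNAs.

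**Figure D2:**
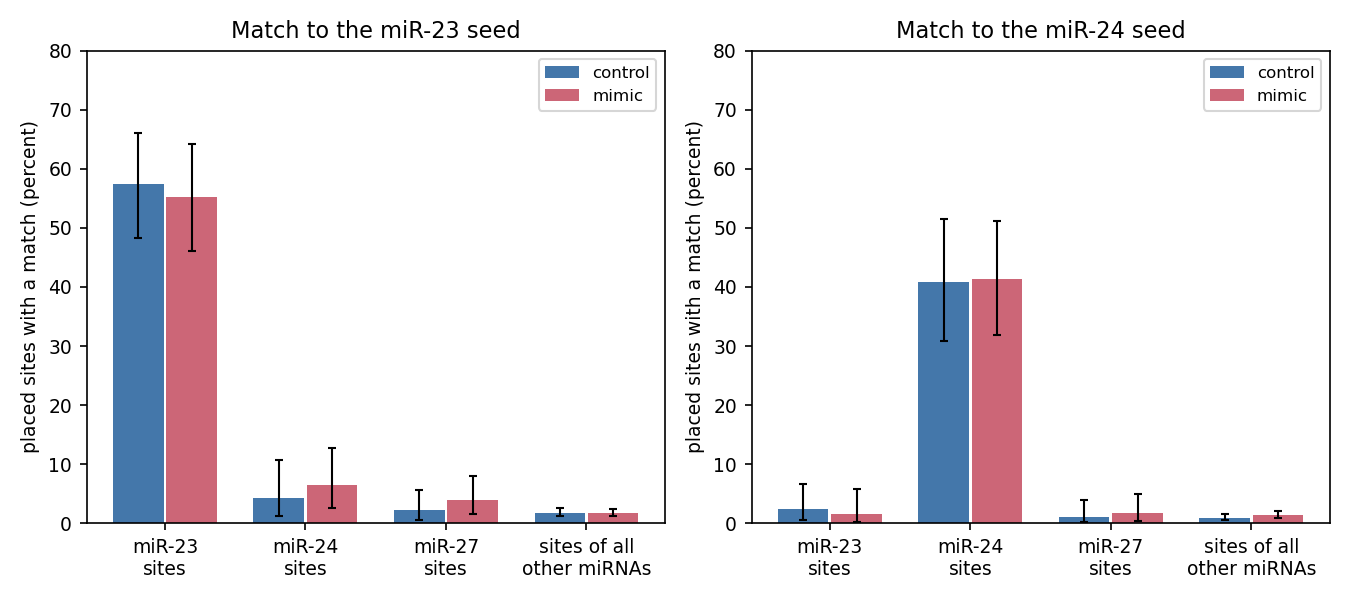
Percent of placed sites of at least 3 reads that held the match to the miR-23 seed (left) or the miR-24 seed (right), for sites of miR-23, miR-24, miR-27 and all other miRNAs, in both libraries. Sites of all other miRNAs leave out peaks with at least 3 reads of miR-23, miR-24 or miR-27. Bars start at 0 and error bars are 95% Clopper-Pearson intervals for counting error. Each match is frequent only at the sites of its own miRNA, 55.3% to 57.4% and 40.9% to 41.3%.

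The share with a match rose with the number of reads up to the class of at least 3 reads. At miR-23 sites it was 8.41% and 9.40% at under 1 read and 30.5% and 29.0% at 1 to under 3 reads. At 3 or more reads it was 57.4% and 55.3%. For miR-24 it was 7.45% and 4.44%, then 19.2% and 21.6%, then 40.9% and 41.3%. At 10 or more reads few sites were placed. The own match stood at 17 of 29 and 14 of 20 for miR-23 (58.6% and 70%). For miR-24 it stood at 4 of 11, 36.4% (10.9% to 69.2%), and 4 of 14, 28.6% (8.39% to 58.1%), so no further rise was seen. Matches were also centred on the peaks. Of the miR-23 matches within 200 nt of a miR-23 peak's centre, 67 of 84 in control muscle and 54 of 82 in mimic muscle lay within 25 nt, and for miR-24 33 of 50 and 39 of 52. The matches fell in annotated 3′ UTR at 64 of 74 and 57 of 68 placed miR-23 sites and at 35 of 38 and 40 of 45 miR-24 sites, and in coding sequence at the others. Only peaks within the last exon were placed, and that exon commonly holds the 3′ UTR, so this split was largely set by the placement. It does not describe the sites that were not placed.

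**Figure D3:**
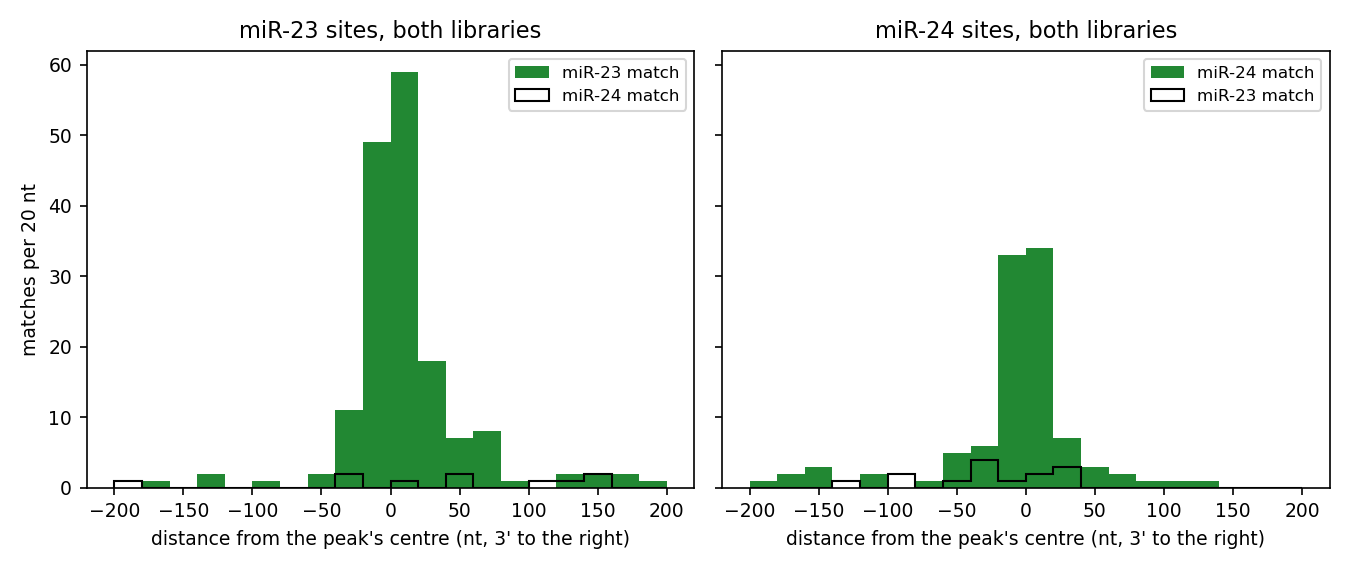
Number of seed matches per 20 nt (y axis) by distance in nt from the centre of the peak (x axis, 3′ to the right), at placed miR-23 sites (left) and miR-24 sites (right) of at least 3 reads, both libraries together. Filled bars are the miRNA's own match and the outline is the match of the other miRNA. The own matches pile up around 0, with 67 and 54 miR-23 matches and 33 and 39 miR-24 matches within 25 nt in the control and mimic.

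Outside placed exons, the ND5 site of miR-24 could be read directly, because the mitochondrial genes had the same spans in NCBIM37, whose sequence was read, and in GRCm38 (37 of 37). ND5 encodes a subunit of respiratory complex I. The miR-24 match lay at chrM:12959-12965, at the border of a pair of adjoining peaks in control muscle and inside the longer of the pair in mimic muscle. The control peaks, chrM:12933-12959 and chrM:12960-13005, held 62.4 and 96.8 reads of miR-24. The mimic peaks, chrM:12935-12956 and chrM:12957-13017, held 75.3 and 178 reads. miR-24 supplied 70.8% to 79.4% of the reads of all miRNAs in these 4 peaks. The mitochondrial ribosomal RNA peaks of mt-Rnr1 and mt-Rnr2 with at least 3 miR-23 or miR-24 reads held no match to the seed of the miRNA counted there.

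miR-23 sites fell in 1482 genes in control muscle and 1591 in mimic muscle, with 764 shared, and miR-24 sites in 1329 and 1430, with 694 in both. With at least 3 reads in both libraries, miR-23 had 220 genes and miR-24 had 162, and 49 genes were on both lists, 22.3% of the miR-23 list and 30.2% of the miR-24 list. miR-23 and miR-27 had 81 in common, 36.8% of the miR-23 list and 24.4% of the miR-27 list. miR-24 and miR-27 had 55 in common, 34% of the miR-24 list and 16.6% of the miR-27 list. The part of abundant RNAs in these overlaps was not tested. Of the 4300 genes with at least 3 reads of any miRNA in both libraries, the miR-23 list was 5.12%, the miR-24 list 3.77% and the miR-27 list 7.72%.

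The genes with the most miR-23 reads were Rn18s-rs5, the ribosomal RNA precursor, with 702 reads in control muscle and 724 in mimic muscle, and Ttn, the giant spring protein of the sarcomere, with 495 and 602. Neb, the thin filament ruler nebulin, followed with 178 and 230 reads. Both Ttn and Rn18s-rs5 hold reads of many miRNAs, and miR-23 was 2.83% and 2.56% of all chimeric reads on Ttn and 4.51% and 4.36% of those on Rn18s-rs5. Fth1, the ferritin heavy chain that stores iron, had 90.0 and 78.5 reads of miR-23. Casq1, the calcium buffer of the fast fibre sarcoplasmic reticulum, had 84.6 and 83.4. Mylpf, a fast myosin light chain, had 69.6 and 81.5, and Ckm, muscle creatine kinase, had 67.7 and 79.7. The counting intervals of the ratio of mimic over control included 1 for these genes except Ttn, at 1.22 (1.08 to 1.37), and Neb, at 1.29 (1.06 to 1.58). All miRNAs together had ratios of 1.35 on Ttn and 1.19 on Neb. Chimeric reads depend on the amount of the target RNA as well as on its binding, and these cannot be told apart here.

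miR-23 dominated a few genes. Cxcl12, the chemokine that recruits CXCR4-bearing cells, had 74.3 miR-23 reads in control muscle and 81.6 in mimic muscle, 71.4% and 71.6% of all its chimeric reads. Its stronger site, with 52.2 and 58.8 reads, lay at chr6:117181135-117181239 and chr6:117181126-117181239 and holds the match printed above. Its second site, chr6:117174359-117174447 in the control, had 20.7 reads and 95.4% of the peak, and the overlapping mimic peak had 21.3. Zwint, a kinetochore protein, had 54.4 and 62.9 reads, 57.4% and 65.8% of its total. Its main site, chr10:72674744-72674872 in the control and chr10:72674731-72674871 in the mimic, held the printed match and 43.3 and 52.4 reads. A second Zwint site, with 11.1 and 10.5 reads, held no match.

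Myh1, the fast IIx myosin heavy chain, stood apart among the 10 leading miR-23 genes. It had 50.9 miR-23 reads in control muscle and 116 in mimic muscle, a ratio of 2.27 (1.62 to 3.23), and the intervals of its levels, 38.0 to 67.1 and 95.9 to 139, did not overlap. All miRNAs together also had more reads on Myh1 in the mimic, 11358 against 6380, a ratio of 1.78, so miR-23 was 0.798% and 1.02% of the gene's reads. Reads of close myosin heavy chain paralogs may be divided among Myh1, Myh2 and Myh4. Myh4, the IIb form, had 30.9 and 22.0 miR-23 reads, and Myh2, the IIa form, 6.78 and 11.2.

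The genes with the most miR-24 reads were Ttn, with 322 in control muscle and 423 in mimic muscle, a ratio of 1.31 (1.13 to 1.52), and Rn18s-rs5, with 319 and 325. ND5 had 168 and 261, a ratio of 1.55 (1.27 to 1.90), beside a ratio of 1.41 for all miRNAs on ND5. Taf1d, a subunit of the RNA polymerase I factor SL1, had 71.9 and 114 miR-24 reads, 96.0% and 97.4% of its chimeric reads. Its ratio was 1.58 (1.17 to 2.16). That peak, chr9:15314072-15314143 in the control, also overlaps an annotated small nucleolar RNA on the same strand, and the spliced host RNA and that small RNA cannot be told apart.

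Further miR-24 genes were more evenly matched between the libraries. mt-Rnr1, the small mitochondrial ribosomal RNA, had 62.7 and 66.6 reads of miR-24. Cmya5, a costamere protein of striated muscle, had 50.7 and 70.5, and Myh1 47.3 and 62.8. Neb had 52.6 and 50.3. Hspb6, a small heat shock protein of muscle, had 46.8 and 37.7 reads, and Btg2, an antiproliferative gene, 39.9 and 34.7. The intervals of these 6 ratios all included 1.

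**Figure D4:**
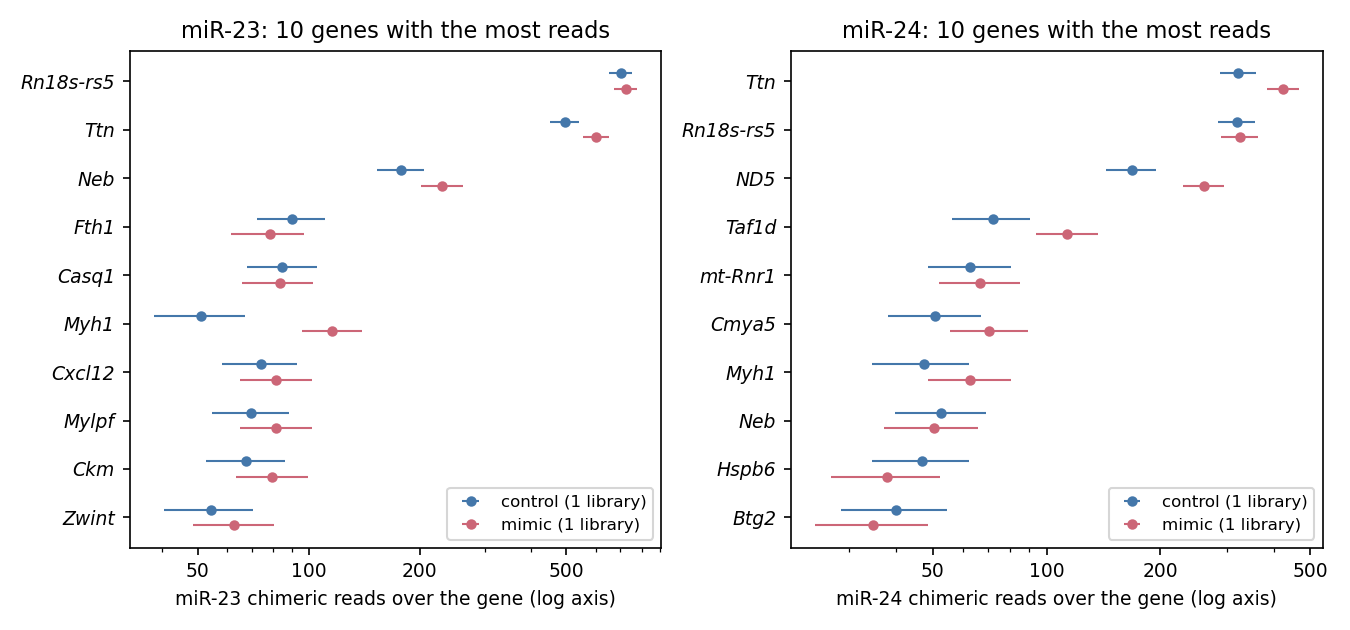
Chimeric reads of miR-23 (left) and miR-24 (right) over each of the 10 genes with the most reads, on a log axis, for the control and the mimic, 1 library each. Bars are exact 95% Poisson intervals for counting error. The intervals of the libraries do not overlap for Ttn and Myh1 in the miR-23 panel (Myh1 50.9 and 116 reads) and for Ttn, ND5 and Taf1d in the miR-24 panel (ND5 168 and 261).

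Among 34 genes listed as miR-23 targets from the field's common knowledge, 28 had a chimeric peak of any miRNA, 12 had a miR-23 site in control muscle and 14 in mimic muscle, and 7 had at least 3 miR-23 reads in both. That is 25% of the 28, beside 2.74% of all 8016 genes with a chimeric peak (220 genes), but this list contains the abundant myosin heavy chains and Cxcl12. By reads, the list held 3.13% and 4.14% of miR-23 reads in the control and the mimic, below the 6.15% and 7.22% of the reads of all miRNAs. The list was also written with earlier results of these data known. miR-24 had at least 3 reads in both libraries in 10.7% of the same 28 genes. Sema6d, a semaphorin, had 10.7 and 16.7 miR-23 reads and held a match at its main site. Trim63, the atrophy ubiquitin ligase MuRF1, had 3.87 and 4.05 reads, of 79.8 and 93.4 reads of all miRNAs. Fbxo32, the other listed atrophy ligase (atrogin-1), had 1 and 0.0139 miR-23 reads of 52.0 and 61.5. Lmnb1, a nuclear lamin, had 2.58 and 3.56.

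Of 29 genes listed as miR-24 targets, 16 had any chimeric peak, and 4 had a miR-24 site in control muscle and 7 in mimic muscle. At least 3 miR-24 reads in both were found in 4, 25% of the 16 beside 2.02% of all genes (162). By reads, the list held 0.792% and 0.813% of miR-24 reads in the control and the mimic, beside 0.114% and 0.108% of the reads of all miRNAs. This list too was written with earlier results of these data known. miR-23 had at least 3 reads in both libraries in 1 of the same 16 genes, 6.25%. Furin, a proprotein convertase, had 10.2 and 12.8 miR-24 reads. Cdkn1b, the cell cycle inhibitor p27, had 10.1 and 8.83, at a site with the match. Acvr1b, the activin receptor ALK4, had 8.41 and 5.73, and Jph2, a junctophilin that joins the T-tubule to the sarcoplasmic reticulum, 3.47 and 3.98. Bcl2l11, the proapoptotic protein BIM, had 0 reads of miR-24 in the control (interval up to 3.69) and 4.32 in the mimic. These levels were low, and the ratio intervals of Furin, Cdkn1b, Acvr1b and Jph2 included 1.

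Sarcomere genes held 19.9% of miR-23 reads in control muscle and 22.0% in mimic muscle, and 16.2% and 16.6% of miR-24 reads. All miRNAs together placed 20.8% and 23.6% of their reads there, so the share of miR-23 was close to the whole and that of miR-24 below it. At least 3 reads in both libraries were found for miR-23 in 20 of 53 sarcomere genes (37.7%) and for miR-24 in 21 (39.6%). Over all genes with a chimeric peak the shares were 2.74% and 2.02%. Sarcomere genes hold many reads of all miRNAs, and the part of RNA abundance in these counts was not tested. Flnc, a filamin of the Z-disc, had 39.5 miR-23 reads in control muscle and 9.65 in mimic muscle, a ratio of 0.244 (0.111 to 0.509), beside 524 and 367 reads of all miRNAs. Actn2, the Z-disc actinin, had 25.8 and 7.21 miR-24 reads, a ratio of 0.279 (0.0987 to 0.637), while its miR-23 reads were 34.6 and 51.6. Flnc and Actn2 were singled out after their values were seen. They were not typical of the list, whose median ratio over genes with at least 3 reads in both libraries was 1.12 for miR-23 and 1.23 for miR-24, beside 0.978 and 1.06 over all such genes.

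Calcium handling genes held 2.76% and 3.94% of miR-23 reads and 1.84% and 2.75% of miR-24 reads, beside 1.44% and 1.51% of the reads of all miRNAs. Single genes weighed heavily in these shares. Of 172 and 260 miR-23 reads on the list, Casq1 held 84.6 and 83.4, and Atp2a1 15.8 and 63.8. Of 23 such genes, 7 (30.4%) had at least 3 reads in both libraries for each miRNA. Over all genes with a chimeric peak the shares were 2.74% (miR-23) and 2.02% (miR-24). Atp2a1, the calcium pump SERCA1 of fast fibres, had 15.8 miR-23 reads in control muscle and 63.8 in mimic muscle, a ratio of 4.03 (2.29 to 7.41), while all miRNAs on the gene had 1243 and 1281. Counting only entries of at least 3 reads, the ratio was 10.4. The largest part lay in 1 region. A control peak at chr7:126459696-126459716 held 7.01 reads, and adjoining mimic peaks at chr7:126459661-126459694 and chr7:126459695-126459714 held 30.8 and 12.6. miR-23 led the other miRNAs in each of these 3 peaks. miR-24 on Atp2a1 had 21.3 and 22.9 reads.

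Other calcium genes were Casq1, with 19.8 and 41.9 miR-24 reads and a ratio of 2.12 (1.21 to 3.78), and Ryr1, the calcium release channel, with 9.37 and 26.6, a ratio of 2.84 (1.37 to 7.25). All miRNAs together had 391 and 527 reads on Casq1 and 445 and 540 on Ryr1. In the merged Casq1 region of miR-24, chr1:172210165-172210291, all miRNAs had 56.6 and 121 reads, a ratio of 2.14. The junctional protein Trdn had 3.01 and 15.5 miR-23 reads, and the junctophilin Jph1 had 3 and 12.7 miR-24 reads. Ryr1 and Trdn were singled out after their values were seen. The median ratio over the calcium genes with at least 3 reads in both libraries, 7 for each miRNA, was 1.43 for miR-23 and 1.71 for miR-24. Over all such genes it was 0.978 and 1.06.

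Extracellular matrix genes held 2.41% and 2.52% of miR-23 reads and 3.54% and 2.84% of miR-24 reads, beside 4.98% and 4.15% for all miRNAs. Of 52 matrix genes, 10 (19.2%) had at least 3 miR-23 reads in both libraries and 8 (15.4%) had at least 3 miR-24 reads. Over all genes with a chimeric peak the shares were 2.74% and 2.02%. Col3a1, the fibrillar collagen III chain, had 12.3 and 22.4 reads of miR-23 and 18.1 and 17.5 of miR-24. Sparc, a collagen-binding protein, had 19.4 and 13.0 reads of miR-23 and 19.4 and 22.1 of miR-24. Of 25 glycolysis genes, 5 (20%) had at least 3 reads in both libraries for miR-23 (Aldoa, Eno3, Pkm, Ldha and Gys1). For miR-24 there were 2 (8%), Aldoa and Tpi1, beside the same shares of all genes. These genes were named after their values were seen. The glycolysis list held 0.915% and 0.866% of miR-23 reads and 1.16% and 0.846% of miR-24 reads, beside 2% and 1.79% for all miRNAs. Ldha, lactate dehydrogenase A, had 19.9 and 9.74 reads of miR-23.

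Apart from the mitochondrial RNAs, the remaining lists held few such genes, with 1 gene weighing heavily in each share, and are read beside 2.74% (miR-23) and 2.02% (miR-24) of all genes. Ubiquitin ligase and autophagy genes had 1 gene of at least 3 miR-23 reads in both libraries, Trim63, 3.85% of the 26 with any chimeric peak, and 0 for miR-24. Growth factor and TGFβ genes had 0 for miR-23 and 2 for miR-24, the latter 5.41% of 37. The 2 were Acvr1b and Igf2, the fetal growth factor, with 6.59 and 8.71 miR-24 reads. Endothelial markers had 0 for both miRNAs, and macrophage markers 1 for miR-23, the receptor gene Csf1r with 6.80 and 6.96 reads (9.09% of 11), and 0 for miR-24. Both mitochondrial ribosomal RNAs reached 3 reads for both miRNAs. Of 9 mitochondrial mRNAs with a peak, 1 did so for miR-23, 11.1% (ND5, 6.08 and 7.07 reads) and 2 for miR-24, 22.2% (ND5 and CYTB, the latter with 3.86 and 4.22). Csf1r, Igf2 and CYTB were named after their values were seen. The mitochondrial mRNAs held 4.46% and 5.84% of miR-24 reads against 0.278% and 0.268% of miR-23 reads, beside 3.5% and 4.29% for all miRNAs. Of the 181 and 273 miR-24 reads on these mRNAs, 159 and 253 lay in the merged ND5 region chrM:12933-13017. The miR-24 share is therefore mostly that of 1 site and not of the class.

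The libraries shared mainly the well-covered sites. Of all control sites, 41.3% of miR-23 (39.3% to 43.2%) and 38.6% of miR-24 (36.6% to 40.7%) were overlapped by a mimic site of the same miRNA, beside 43.0% for miR-27. By control reads, the miR-23 share rose from 27.8% at under 1 read to 42.5%, 79.8% and then 94.9% at 10 or more, and the miR-24 share from 26.8% to 42.4%, 80.2% and then 97.8%. The absence of a thin site from a library was therefore not a measured difference at this depth.

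Where a site was in both libraries, the median ratio of its reads was near 1, but single sites spread widely. Over 977 shared miR-23 sites the median log2 ratio of mimic over control was 0.04 (-0.02 to 0.12), and over 766 shared miR-24 sites 0.01 (0 to 0.10), beside 0.04 over the 30839 shared sites of all miRNAs. The SD of the log2 ratio was 2.25 over the miR-23 sites and 2.13 over the miR-24 sites, and 0.75 and 0.70 over those of at least 3 reads in both, beside 0.71 for all miRNAs. Among 237 miR-23 sites with at least 3 reads in both, 17 were at least 2-fold higher in the mimic and 26 at least 2-fold lower, and among 147 miR-24 sites 15 were higher and 7 lower. Over all miRNAs, 10.3% of 6316 such sites were at least 2-fold higher and 5.62% at least 2-fold lower. With overlapping or adjoining peaks of both libraries merged, an alternative chosen after the data were seen, miR-23 had 19 higher and 23 lower of 242 regions and miR-24 had 20 higher and 8 lower of 160, beside 9.43% and 5.48% of regions of all miRNAs.

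**Figure D5:**
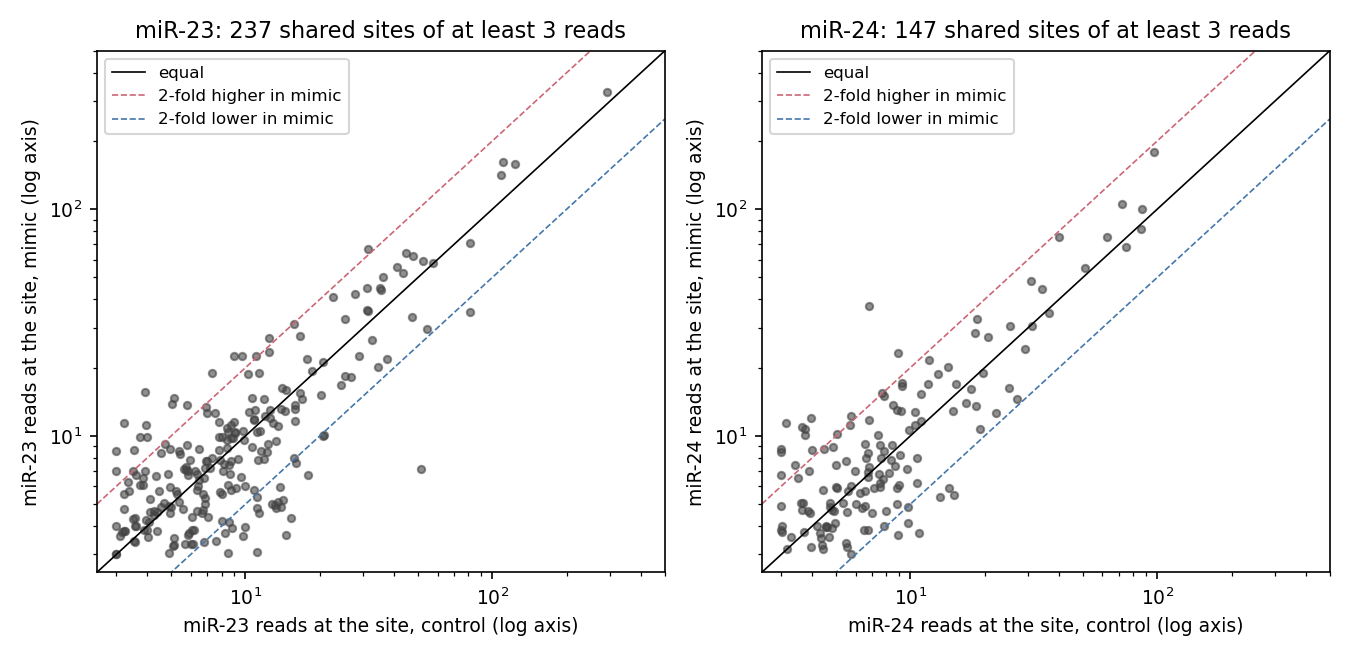
Chimeric reads at each shared site of at least 3 reads in both libraries, control on the x axis and mimic on the y axis, both log, for 237 miR-23 sites (left) and 147 miR-24 sites (right). The solid line marks equal reads and the dashed lines a 2-fold difference. Thin sites scatter around the line, and the points farthest from it are Fth1 for miR-23 (51.5 and 7.12 reads) and Hspb6 for miR-24 (6.77 and 37.6).

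The largest falls of miR-23 by peak began with a site that the libraries divided differently. The Fth1 peak held 51.5 reads in control muscle and 7.12 in mimic muscle, but with adjoining peaks merged the region chr19:9984768-9984887 had 72.9 and 62.5, a ratio of 0.857 (0.595 to 1.21). Tnks2, a tankyrase, had 14.6 and 3.66 reads at its peak, and 22.7 and 10.7 over the merged region, a ratio of 0.470 (0.210 to 1.02). Tuba4a, an alpha tubulin, had 11.2 and 3.08, at a site with a match in the coding sequence. Myh9, the nonmuscle myosin IIA, had 15.3 and 4.35, and all miRNAs in that peak also fell, from 18.3 to 6.08. Nfe2l2, the antioxidant regulator NRF2, had 13.9 and 4.84. The intervals of the peak ratios included 1 for Tuba4a and Nfe2l2.

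The largest miR-23 rises were at Col6a3, a collagen VI chain, from 3.93 to 15.7 reads, Col3a1, from 3.22 to 11.4, and the activator protein gene Fosb, from 3.95 to 11.2. An Rn18s-rs5 peak went from 5.12 to 14.7 and Cnot2, a deadenylase subunit, from 3 to 8.61. Some well-covered sites also differed. At others, such as the merged miR-23 regions of Casq1, Cxcl12 and Ckm, the interval of the ratio included 1. Tnnc2, the fast troponin C, and the Ttn regions below were chosen after their values were seen. The Tnnc2 site at chr2:164777493-164777589 in the control and chr2:164777498-164777590 in the mimic held 81.0 and 35.3 miR-23 reads, a ratio of 0.436 (0.282 to 0.650). All miRNAs over the merged region had 189 and 161 reads, a ratio of 0.854. miR-486b-5p in the same peaks had 45.7 and 46.1 reads. On Ttn, the merged region chr2:76714655-76714745 had 31.5 and 67.0 miR-23 reads, a ratio of 2.13 (1.39 to 3.42), beside 2.03 for all miRNAs there. The Ttn region chr2:76826445-76826542 had 39.9 and 90.4 miR-24 reads, 2.27 (1.53 to 3.35), beside 2.07.

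For miR-24 the largest rise by peak, Hspb6 with 6.77 and 37.6 reads, was again a difference in how peaks were divided. Merged, the region chr7:30554625-30554840 had 46.2 reads in control muscle and 37.6 in mimic muscle, which reverses the direction to a ratio of 0.813 (0.523 to 1.30). Its match lies in the part that the control listed as a separate peak, chr7:30554779-30554840, with 39.5 reads. Other rises were at Cd74, the invariant chain of antigen presentation, from 3.13 to 11.4, Tob2, an antiproliferative gene, from 3.96 to 12, Ets1, a transcription factor, from 3.64 to 11, and Jph1, from 3 to 8.74. The intervals of these 4 ratios included 1. All miRNAs in the Cd74 peak went from 9.66 to 35.3.

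The largest miR-24 falls were at Ndufc2, a complex I subunit, from 10.8 to 3.75 reads, Rtn4, a reticulon, from 15 to 5.52, and Cldn12, a claudin, from 14.3 to 5.90. A Ttn peak went from 13.2 to 5.39 and an Acta1 peak, skeletal alpha actin, from 8.95 to 3.66. The counting intervals of the ratio included 1 at all 5 of these sites, and at 3 of the 5 leading rises of miR-23.

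Genes with at least 10 reads of each miRNA in both libraries numbered 15. They were Acta1, Atp2a1, Casq1, Ckm, Col1a1, Col3a1, H19, Mybpc1, Myh1, Myh4, Neb, Rn18s-rs5, Sparc, Ttn and mt-Rnr2. H19, the imprinted noncoding RNA, had 15.7 and 31.2 reads of miR-23 and 32.1 and 33.8 of miR-24. Mybpc1, slow myosin binding protein C, had 32.1 and 34.9 reads of miR-23 and 11.3 and 22.3 of miR-24. On Casq1 the miRNAs sat at opposite ends of the gene. The main miR-23 site was chr1:172219477-172219592 in the control with 80.8 reads, and the main miR-24 site chr1:172210226-172210285 with 18.2. In the mimic these sites held 70.9 and 28.6 reads.

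No other miRNA followed miR-23 or miR-24 closely from peak to peak. Among miRNAs with at least 500 entries per library, the highest Spearman correlations of reads over peaks with miR-23 were those of miR-27a-3p (0.17 in control muscle and 0.19 in mimic muscle), miR-27b-3p (0.15 and 0.18), miR-378a-3p (0.14 and 0.18) and miR-378b (0.13 and 0.17). With miR-24 they were those of miR-378a-3p (0.16 and 0.17) and miR-378b (0.14 and 0.14), with miR-23 itself next (0.13 and 0.14). The peaks of a library share its depth, the counts are sparse, and correlations this weak are no finding.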

How the data were processed

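Ago2 chimeric eCLIP-seq peaks of the control and mimic libraries were used as deposited. The input libraries are not analysed here. Per the submitters' processing notes, UMI-tools 1.1.1, cutadapt 3.2, STAR 2.7.7a, Bowtie 1.2.3 and HOMER 4.11 were used on mm10. The methods name mm9, and the coordinates fit mm10 (GRCm38). The deposited values are estimated counts of chimeric reads, made by the authors for each miRNA in each peak. Only 17.4% (control) and 16.7% (mimic) are whole numbers, and how fractions arose is not given in the sources used here. The libraries held 232408 and 259207 reads in 20754 and 21872 peaks.

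Reads of miR-23a-3p and miR-23b-3p were summed per peak. Genes were assigned by same-strand overlap with RefSeq spans of GRCm38.p6. Sites were paired by mutual largest overlap of at least 1 nt. A call was a 2-fold difference at pairs of at least 3 reads in both libraries. Intervals are Clopper-Pearson for shares, exact Poisson for reads, exact conditional binomial for ratios (all on rounded reads) and order-statistic for medians. With 1 library a group no test between conditions was made. Members and gene lists were chosen with earlier results of these data known. Genes named are, per miRNA, the 10 with the most reads, the 5 largest rises and 5 largest falls at shared sites, listed targets with at least 3 reads in either library, and genes with at least 10 reads of each miRNA in both. The 5 miRNAs closest by Spearman correlation were eligible to be named.

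Seed matches were planned on a genome of the build of the files. Only NCBIM37 sequence was at hand, so peaks were instead placed, by a procedure chosen after the data were seen, by distance from the 3′ end of the RefSeq gene within the last exon of a GENCODE vM1 transcript that reaches the gene's end. This assumes that gene ends agree between the annotations. An earlier version used any transcript and the length of its 3′ UTR, and both are given. Pairing was tested on simulated data. Python 3.11.15, numpy 2.4.6, scipy 1.17.1, pandas 2.3.3 and matplotlib 3.10.9 were used. Results for 1 listed target gene are not reported here.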

Additional observations from a re-analysis of the deposited data

How the results depend on the processing

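No paired analysis was possible because there was 1 library of each kind. Of 74 alternatives to the main values, 40 stayed within the counting interval or 1.5 times the count, 33 moved and 1 reversed, and of 139 alternatives for single genes and sites 134 stayed, 4 moved and 1 reversed. Divided by library totals, the miR-23 ratio reversed to 0.952, the miR-24 ratio was 1.03, and the median log2 changes were -0.11 and -0.14. miR-23b-3p alone had a ratio of 1.1. With entries of at least 3 reads only, the share of entries was 3.75% for miR-23 in the control (from 3.57%), and 2.42% and 2.59% for miR-24 (from 2.31% and 2.39%). As a share of reads it was 2.68% and 2.55% for miR-23 and 1.74% and 1.80% for miR-24. The overlap of control sites became 34% and 30.1% with a reciprocal overlap of 50%, 61.1% and 59.5% at 3 reads in both, and 37.2% and 33.4% counted from the mimic. At 3 reads a gene, miR-23 had 357 and 348 genes and miR-24 had 257 and 291, and listed miR-23 targets numbered 7 and 8. The 3-read minimum and the reciprocal overlap change the counts by their own construction, and for the rest the cause was not tested. Merging adjoining peaks moved the Fth1 ratio to 0.857 and reversed Hspb6 to 0.813.

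The seed analysis and its versions were chosen after the data were seen. The match to bases 2 to 7 raised the shares to 73.6% and 72.4% for miR-23 and 64.5% and 66.1% for miR-24, with 3.93% and 4.33%, and 2.60% and 3.001%, at peaks of other miRNAs. In the version first tried the own-seed shares were 59.6% and 55.4% for miR-23 and 47.9% and 47.1% for miR-24, inside the intervals of the main values. At other miRNAs' peaks in the mimic, the miR-23 match was 1.15% without the margin and 2.71% with peaks of the cluster's miRNAs kept. Counting error limits the text below about 10 reads.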
